A study of Mus musculus with 24 samples.

Results

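The integrin subunit genes carried by blood cells that were followed were *Itga2*, *Itga4*, *Itga5*, *Itga6*, *Itgal*, *Itgam*, *Itgax*, *Itgb1*, *Itgb2* and *Itgb7*. These 10 of 29742 gene names were found on the array by symbol, and 17 of 39429 probes carried them. The question was how their transcript levels in mouse blood differed 1 day after x-rays, with age, and between the ages in their response to x-rays.

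Integrins are receptors in the cell membrane that join an α and a β subunit, and they hold a cell to other cells or to matrix. The β2 subunit (*Itgb2*) pairs with αL (*Itgal*) to form LFA-1, with αM (*Itgam*) to form Mac-1 and with αX (*Itgax*), which are confined to leukocytes and bind ICAM proteins, complement or fibrinogen. The β1 subunit (*Itgb1*) pairs with α2 (*Itga2*, a collagen receptor of platelets and some lymphocytes), α4 (*Itga4*, which binds VCAM-1), α5 (*Itga5*, the fibronectin receptor) and α6 (*Itga6*, a laminin receptor of platelets and T cells). The β7 subunit (*Itgb7*) pairs with α4 to form the receptor that guides lymphocytes to the gut through MAdCAM-1.

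Blood of 24 male C57BL/6J mice was taken by cardiac puncture, and the RNA of each mouse was hybridised to an Agilent array of its own with a single dye. Groups held 6 mice each: young (2 months) unirradiated, young irradiated, old (21 months) unirradiated and old irradiated mice. Irradiated mice had received 4 Gy of x-rays to the whole body 24 h before the blood was drawn, and unirradiated mice had been sham-exposed. All mice were restrained without anesthesia, and all RNA was globin-reduced whole-blood RNA, so fewer cells of a type and less RNA per cell cannot be told apart in any value that follows. Values are log2 signals minus the median of their array, so a level of 0 is the median spot, and they compare 1 probe between mice, not 1 gene with another.

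Each of the 6 slides held 4 arrays from mice of 1 age, and the ages were scanned on different days, so age and scan day cannot be told apart. Old irradiated replicates 4 and 6 stood apart: they lay 1.15 to 2.07 from the other 22 arrays in the spread of their log2 differences and 0.26 from each other. Their median signals were 8.66 and 8.84 against 14.4 to 44.8 on the other arrays, their red cell markers averaged 11.87 and 11.91, and their monocyte markers 3.69 and 3.89. The log2 slope per 10 points of probe GC content was 0.02 to 0.21 in young and -0.21 to -0.06 in old unirradiated mice. In old irradiated replicates 4 and 6 it was 0.37 and 0.39. Values of the integrins, their subunit differences and the cell markers are also given without them where they moved by over 1.5 times, whereas other genes of the pathway are given with all arrays only. Within groups, 6 pairs of arrays differed by less than 2 times the spread of repeat spots on 1 array, and the 24 mice were also counted as 4, 4, 5 and 5 independent sets. Markers of B cells, neutrophils, monocytes and platelets were all well above background in every unirradiated mouse, as blood should show. Of the T cell markers 7 of 8, and of the red cell markers 6 of 7, were so in every young unirradiated mouse. Hepatocyte markers, which blood should lack, averaged over 5 in 1 young unirradiated, 3 young irradiated and 3 old irradiated mice. Changes without these 7 arrays are given for the calls of tested integrins after irradiation and in the interaction.

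A gene was termed differentially expressed when its p in limma's moderated test was below 0.005 and, adjusted by Benjamini and Hochberg, below 0.05 over the 17525 genes tested. Of the members, 9 of 10 were among these genes. The brightest *Itga4* probe varied by less than the 1.5-fold filter asks, so its values come from the same fit over 18792 genes without that filter.

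After irradiation, 6 of 9 tested integrins were differentially expressed in young mice (5 upregulated, 1 downregulated) and 4 of 9 in old mice (all upregulated). The share over all genes was 35.7% in young mice (14.4% upregulated, 21.3% downregulated) and 25% in old mice (7.6% and 17.4%). The levels of irradiated mice lay wholly outside those of unirradiated mice for 6 of 10 integrins at the young age and 2 of 10 at the old age, against 24.9% and 22.6% of all genes. The median log2 difference of the tested integrins was 1.18 in young and 0.88 in old mice, whereas the median of all genes tested was -0.20 and -0.25. The upregulated integrins at both ages were *Itga2*, *Itga6*, *Itgb1* and *Itgb2*. All 4 were higher after irradiation under each scaling and background correction tried, at both ages. With normexp background correction, however, 3 of 9 integrins were called in young mice (835 of 11782 genes) and 0 of 9 in old mice (8 of 11782 genes). Without the 7 arrays with high hepatocyte markers, 7 of 9 integrins were called in young mice, all higher, where 6182 of 17525 genes were called. *Itgal* and *Itgax* gained a call there and *Itgb7* lost its call. Without the 7 arrays with high hepatocyte markers, which leaves old irradiated replicates 1, 4 and 6, the 4 integrins called in old mice were *Itga6* (1.59), *Itgb1* (1.34), *Itgam* (2.08) and *Itgb7* (-2.01), where 40.4% of all genes were called, while *Itga2* (1.03, adjusted p = 0.0679) and *Itgb2* (0.76, adjusted p = 0.0524) missed the threshold.

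**Figure D1:**
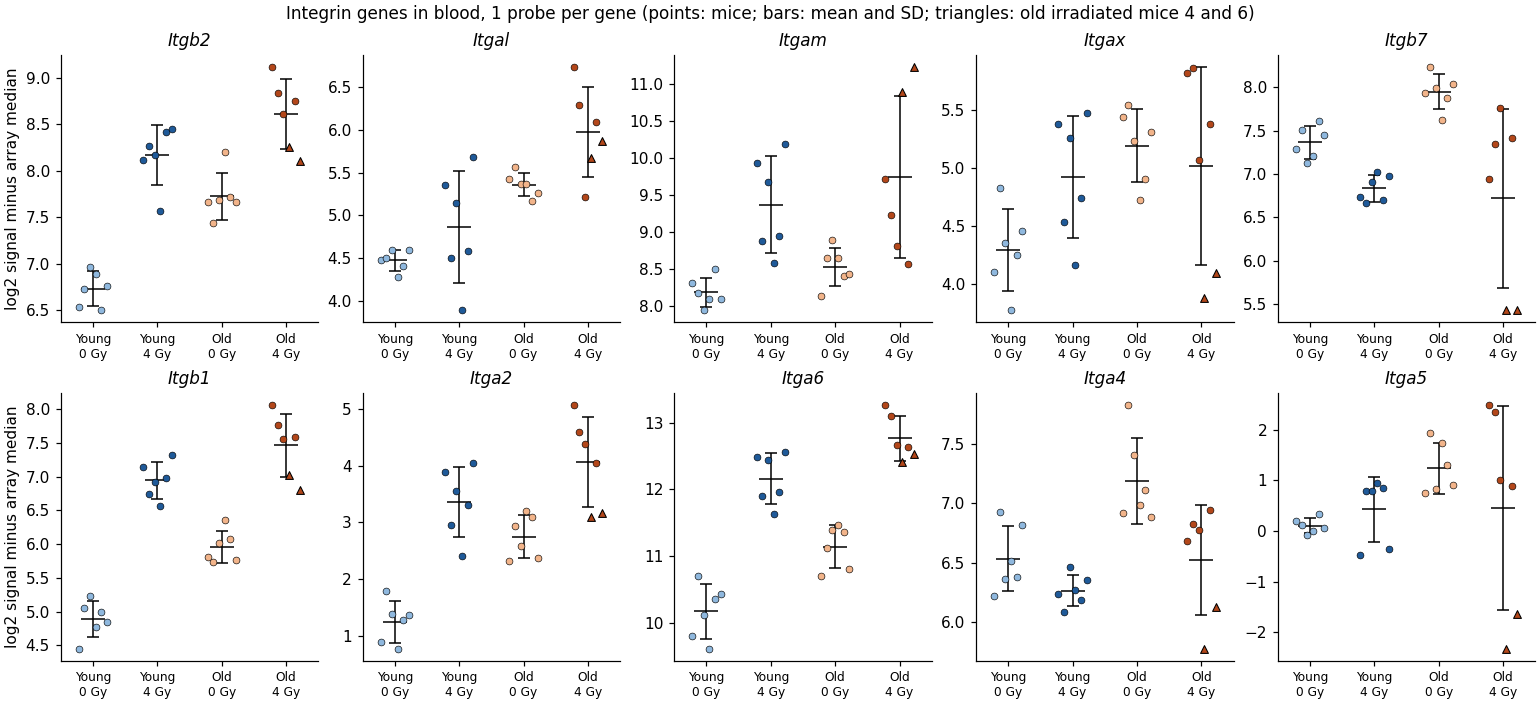
Log2 signal minus array median (vertical axis) of the brightest probe of each of the 10 integrin genes in the 4 groups of 6 mice (horizontal axis). Points are mice, bars are the mean and SD, and triangles mark old irradiated replicates 4 and 6. They lie lowest in their group for every gene but *Itgal* and *Itgam*, and highest for *Itgam*.

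On the brightest probe of each gene, the 3 members with the largest differences in young mice were *Itga2*, *Itgb1* and *Itga6*, which belong to the same β1 group. A dimmer probe of *Itgam* (A_55_P1977929) had a larger difference, 2.38. The *Itga2* probe lies in coding sequence on mouse chromosome 13 (mm9 chr13:115626714-115626773, minus strand) and the main *Itgb1* probe spans a splice junction on chromosome 8 (mm9 chr8:131250081-131255976, plus strand). Both read the short tails inside the cell through which integrins are switched on, which is why they are shown; capitals mark the codons of the GFFKR motif next to the membrane in *Itga2* and of both NPxY motifs, where talin and kindlin dock, in *Itgb1*. A further *Itgb1* probe lies on the same chromosome (mm9 chr8:131246349-131246408, plus strand) and is printed because it tests the same transcript at another place.
Itga2 A_51_P441983: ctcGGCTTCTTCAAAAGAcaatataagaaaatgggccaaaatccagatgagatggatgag
Itgb1 A_66_P113059: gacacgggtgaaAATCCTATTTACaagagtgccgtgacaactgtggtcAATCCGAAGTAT
Itgb1 A_52_P351816: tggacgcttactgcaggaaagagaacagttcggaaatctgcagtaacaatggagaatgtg

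*Itgb1*, the shared β1 subunit, was higher in irradiated mice at both ages. Its lowest, median and highest log2 levels were 4.45, 4.91 and 5.23 in young unirradiated, 6.56, 6.95 and 7.32 in young irradiated, 5.73, 5.91 and 6.36 in old unirradiated and 6.81, 7.58 and 8.06 in old irradiated mice. Irradiated and unirradiated mice did not overlap at either age. The log2 difference was 2.06 (SE 0.17, adjusted p = 3.46e-06), a 4.16-fold rise, in young mice. In old mice it was 1.51 (SE 0.26, adjusted p = 0.00142), or 1.79 without replicates 4 and 6. The further probe gave 2.08 (SE 0.21) in young and 1.37 (SE 0.27) in old mice and passed the same test, over 24195 probes, at both ages.

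*Itga2*, the α2 chain, was higher by a like amount in young mice. Its log2 levels (lowest, median, highest) were 0.77, 1.32 and 1.78 in young unirradiated, 2.40, 3.43 and 4.05 in young irradiated, 2.31, 2.76 and 3.20 in old unirradiated and 3.09, 4.22 and 5.06 in old irradiated mice. The young groups did not overlap. In old mice the only irradiated values within the unirradiated range were those of replicates 4 and 6, 3.09 and 3.17. The log2 difference was 2.12 (SE 0.28, adjusted p = 7.54e-05) in young mice and 1.31 (SE 0.36, adjusted p = 0.0135) in old mice, or 1.78 without both replicates. In old mice *Itga2* missed the threshold without unirradiated replicate 1 (1.22), 3 (1.28) or 6 (1.24), and without irradiated replicate 1 (1.11), 2 (1.2), 3 (1.25) or 5 (1.31).

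*Itga6*, the α6 chain, had 2 probes with different results. The brighter probe (A_55_P2015670, mm9 chr2:71694756-71694815) gave 9.61, 10.24 and 10.71 in young unirradiated, 11.63, 12.20 and 12.56 in young irradiated, 10.70, 11.24 and 11.47 in old unirradiated and 12.41, 12.64 and 13.26 in old irradiated mice. No irradiated mouse overlapped with the unirradiated mice of its age. Its log2 difference was 1.99 (SE 0.23, adjusted p = 2.92e-05) in young and 1.62 (SE 0.25, adjusted p = 0.000728) in old mice. The dimmer probe (A_55_P1958840), designed on an Ensembl transcript of the same gene at mm9 chr2:71690633-71690692, lay between 4.72 and 5.81 in all 24 mice. Its log2 difference was 0.05 (SE 0.12, adjusted p = 0.796) in young and -0.02 (SE 0.26, adjusted p = 0.951) in old mice.

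*Itga5*, the α5 chain of the fibronectin receptor, was near the array median and spread widely after irradiation. The levels of its probe (mm9 chr15:103175022-103175081, minus strand) were -0.09, 0.09 and 0.33 in young unirradiated, -0.47, 0.79 and 0.95 in young irradiated, 0.74, 1.10 and 1.94 in old unirradiated and -2.32, 0.95 and 2.48 in old irradiated mice. The lowest old values, -2.32 and -1.64, were those of replicates 4 and 6, where the probe was not well above background. Among young irradiated mice, replicates 1 and 6 lay below every unirradiated mouse and the other 4 lay above them. The mean difference was 0.32 (SE 0.26, adjusted p = 0.333) in young mice and -0.78 (SE 0.75, adjusted p = 0.436) in old mice. Without replicates 4 and 6 the difference in old mice was 0.44, also not called.

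Of the β2 family, the shared chain *Itgb2* was upregulated at both ages. The log2 levels of its probe (mm9 chr10:77027978-77028037, plus strand) were 6.50, 6.75 and 6.97 in young unirradiated, 7.57, 8.22 and 8.45 in young irradiated, 7.43, 7.68 and 8.20 in old unirradiated and 8.10, 8.68 and 9.12 in old irradiated mice. The young groups did not overlap, and the old groups touched only at old unirradiated replicate 4 (8.20) and old irradiated replicate 6 (8.10). The log2 difference was 1.43 (SE 0.17, adjusted p = 3.48e-05), a 2.70-fold rise, in young mice. In old mice it was 0.88 (SE 0.24, adjusted p = 0.0138), or 1.10 without replicates 4 and 6. The old difference missed the threshold without unirradiated replicate 1 (0.87), 2 (0.83), 3 (0.88), 5 (0.88) or 6 (0.87), and without irradiated replicate 1 (0.78), 2 (0.84), 3 (0.88) or 5 (0.86).

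*Itgal*, the αL chain of LFA-1, was not differentially expressed after irradiation at either age. Its main probe (A_51_P466378, mm9 chr7:134477160-134477219, plus strand) gave 4.28, 4.49 and 4.60 in young unirradiated, 3.89, 4.86 and 5.68 in young irradiated, 5.17, 5.37 and 5.56 in old unirradiated and 5.21, 5.98 and 6.74 in old irradiated mice. Irradiated mice spread on both sides of the unirradiated range in young mice. The log2 difference was 0.38 (SE 0.26, adjusted p = 0.246) in young and 0.62 (SE 0.26, adjusted p = 0.0852) in old mice. A neighbouring probe (A_55_P2184601, mm9 chr7:134477064-134477123) gave 0.50 and 0.30 (0.74 in old mice without replicates 4 and 6), and a further probe (A_55_P2184606, mm9 chr7:134474708-134474767), on another transcript model, -0.11 and 0.47 (0.16 without them), none of them called with all arrays. Without the 7 arrays with high hepatocyte markers, the difference of the main probe in young mice was 0.90 (adjusted p = 0.00195), which passed the test. Scaling to the 75th percentile or to detected probes gave 0.92 (adjusted p = 0.0168) and 0.95 (adjusted p = 0.0106) in old mice, both called.

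*Itgam*, the αM chain of Mac-1 on neutrophils and monocytes, had 3 probes, whose values went different ways in some mice. The brightest (A_55_P1977934), which stands for the gene by the study's rule, lies at the 3′ end of the transcript (mm9 chr7:135261755-135261814, plus strand) and opens with 10 CA repeats in a row. The next (A_55_P1977929, mm9 chr7:135260275-135260334) lies in the stretch that encodes the membrane span, and the last (A_55_P1977926, mm9 chr7:135212140-135212199) near the start of the transcript. The 60 bases of both upstream probes and the first 30 of the repeat probe are shown because the age pattern of *Itgam* turns on which of them is read.
Itgam A_55_P1977934, first 30 bases: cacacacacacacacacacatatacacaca
Itgam A_55_P1977929: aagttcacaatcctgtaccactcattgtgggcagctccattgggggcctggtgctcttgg
Itgam A_55_P1977926: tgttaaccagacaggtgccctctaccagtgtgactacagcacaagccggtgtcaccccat

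The repeat probe of *Itgam* read 7.95, 8.14 and 8.51 in young unirradiated, 8.59, 9.32 and 10.20 in young irradiated, 8.14, 8.55 and 8.90 in old unirradiated and 8.57, 9.48 and 11.24 in old irradiated mice. The membrane-span probe read 3.07, 3.18 and 3.88, then 5.01, 5.59 and 6.36, then 3.58, 4.24 and 4.95, and then 3.20, 5.66 and 6.23 in the same order of groups. All 3 probes separated young irradiated from young unirradiated mice without overlap, with log2 differences of 1.18 (SE 0.26), 2.38 (SE 0.24) and 1.18 (SE 0.32) for the repeat, membrane-span and upstream probe, each called. By limma the differences in old mice were 1.21 (SE 0.44, adjusted p = 0.0452), 1.01 (SE 0.50, adjusted p = 0.137) and 0.71 (SE 0.27, adjusted p = 0.0526), none called, as the repeat probe's own limma p was 0.0154. The probes went opposite ways in old irradiated replicates 4 and 6, which were the highest of all mice on the repeat probe (10.90 and 11.24) and the lowest of their group on the membrane-span probe (4.15 and 3.20). Without them the old differences were 0.55 for the repeat probe, 1.76 for the membrane-span probe and 0.998 for the upstream probe, as values with no test. On both upstream probes the other 4 old irradiated mice did not overlap with the unirradiated mice, whereas on the repeat probe they did. Without old irradiated replicate 5 the repeat probe gave 1.45 (adjusted p = 0.0197), which was called.

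**Figure D2:**
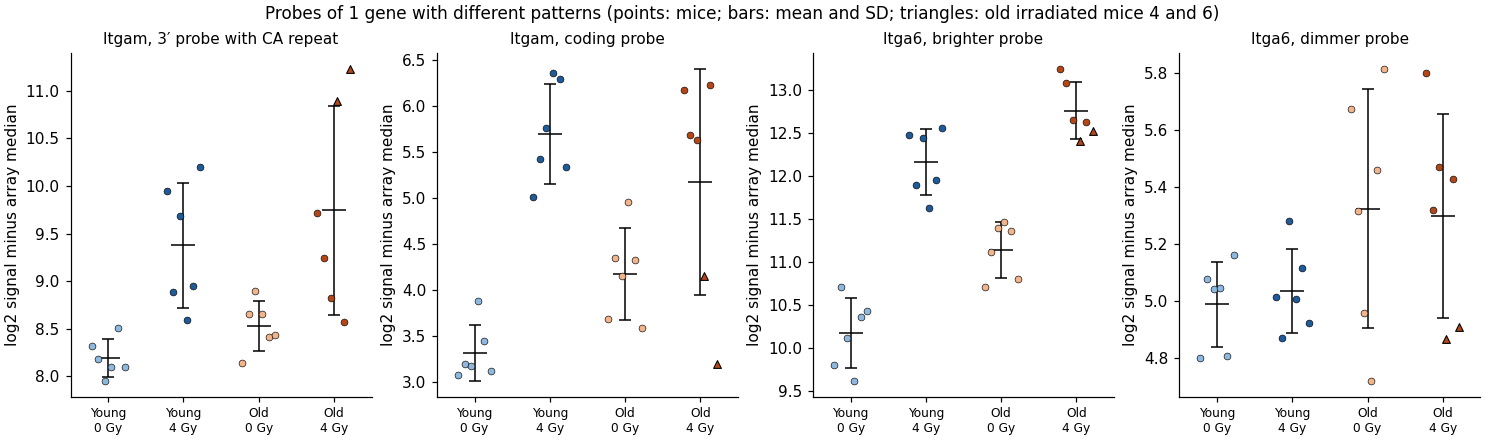
Log2 signal minus array median (vertical axis) of 2 probes each of *Itgam* and *Itga6* in the 4 groups (horizontal axis), with mice as points, mean and SD as bars and old irradiated replicates 4 and 6 as triangles. The triangles are high on the repeat probe of *Itgam* and low on its membrane-span (coding) probe, and the dimmer *Itga6* probe stays between 4.72 and 5.81 in every mouse.

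*Itgax*, the αX chain of dendritic cells and monocytes, was not called at either age. The levels of its probe (mm9 chr7:135294052-135294111, plus strand) were 3.78, 4.31 and 4.83 in young unirradiated, 4.16, 5.0 and 5.47 in young irradiated, 4.72, 5.27 and 5.54 in old unirradiated and 3.88, 5.22 and 5.86 in old irradiated mice, and the groups overlapped at both ages. The difference was 0.63 (SE 0.25, adjusted p = 0.0533) in young mice, and it passed the test without young irradiated replicate 4 (0.78, adjusted p = 0.0122). In old mice it was -0.18 (SE 0.37, adjusted p = 0.731), and 0.34 without replicates 4 and 6, which had the lowest values (3.88 and 4.09).

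*Itgb7* was the only one of the 9 tested members that was downregulated in young mice. The levels of its probe (mm9 chr15:102046450-102046509, minus strand) were 7.12, 7.37 and 7.61 in young unirradiated, 6.67, 6.82 and 7.03 in young irradiated, 7.62, 7.96 and 8.23 in old unirradiated and 5.43, 7.14 and 7.76 in old irradiated mice. The young groups did not overlap, and the log2 difference was -0.53 (SE 0.13, adjusted p = 0.00596), but it was 0.10 after normexp background correction. The call was also lost without the 7 arrays with high hepatocyte markers, where 0 integrins were called lower in young mice. In old mice the difference was -1.22 (SE 0.41, adjusted p = 0.0341), not called since p was 0.0104, and replicates 4 and 6 (5.43 and 5.44) were the lowest. Without them it was -0.58, close to the young value. It was called without old irradiated replicate 3 (-1.43, adjusted p = 0.0154).

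*Itga4*, the partner of β7 and β1, was not called at either age. Its main probe (A_55_P2040026, mm9 chr2:79173193-79173252, plus strand) gave 6.22, 6.45 and 6.92 in young unirradiated, 6.09, 6.25 and 6.46 in young irradiated, 6.89, 7.05 and 7.82 in old unirradiated and 5.78, 6.73 and 6.94 in old irradiated mice, with overlap at both ages. Irradiation gave a log2 difference of -0.27 (SE 0.15, adjusted p = 0.153) in young and -0.66 (SE 0.27, adjusted p = 0.0713) in old mice. Replicates 4 and 6 were the lowest old irradiated mice (5.78 and 6.13), and without them the old difference was -0.38 (adjusted p = 0.146). The dimmer probe (A_66_P140103) gave -0.09 and -0.86, neither called. On it both replicates (-0.13 and -1.34) were not well above background, and without them the old difference was -0.31.

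**Figure D3:**
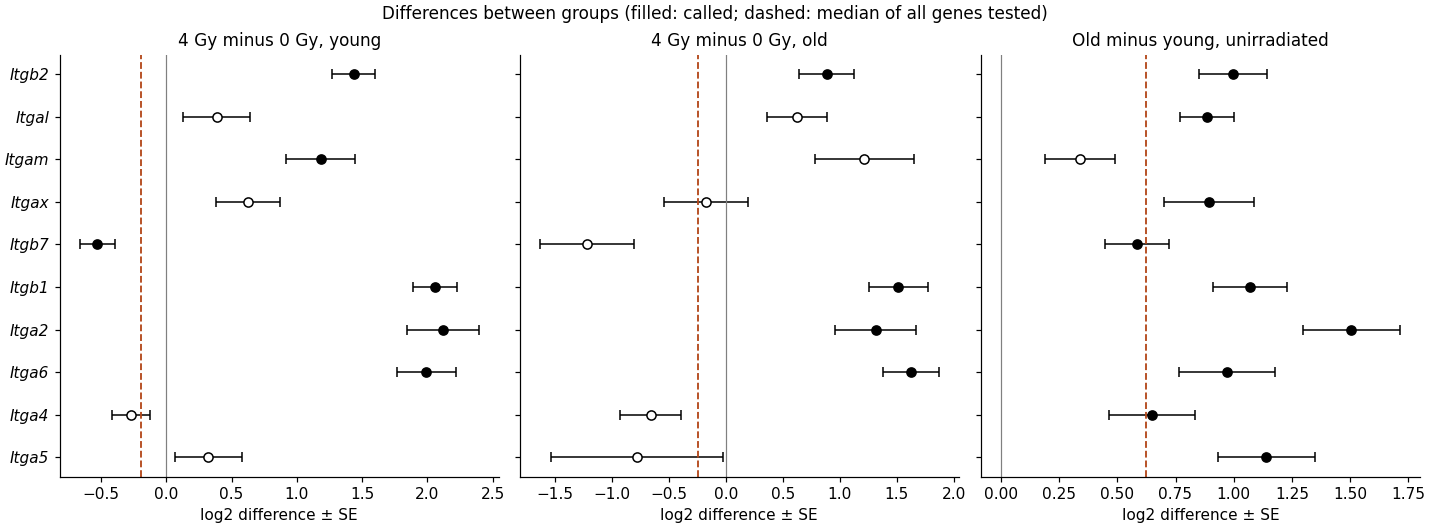
Log2 difference with its SE (horizontal axis) of each integrin (vertical axis) after irradiation in young mice, after irradiation in old mice and between old and young unirradiated mice. Filled points were called, and dashed lines mark the median of all genes tested, -0.20, -0.25 and 0.62; in the age comparison *Itgb7* and *Itga4* turn to -0.03 and -0.05 after quantile normalization.

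On the slide of each age that held both irradiated and unirradiated mice (2 of each), the differences had the same direction as over all arrays for the called members. In young mice they were 2.10 for *Itga2*, 2.03 for *Itgb1*, 1.80 for *Itga6*, 1.56 for *Itgb2*, 1.11 for *Itgam* and -0.83 for *Itgb7*. In old mice, on a slide without replicates 4 and 6, they were 2.10 for *Itga2*, 2.00 for *Itgb1*, 2.09 for *Itga6* and 1.28 for *Itgb2*. With the slide as a random block, all 6 young and all 4 old calls were made again, and *Itgax* was called in young mice as well (0.63, adjusted p = 0.0053).

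Whether partner subunits moved together was read within each mouse, as the log2 level of an α chain minus that of its β chain, set to 0 at the young unirradiated mean. These are differences between levels that were measured on the same array, so array scaling cancels. A shift with probe GC content does not cancel, and the main *Itga4* and *Itgb1* probes hold 35% and 45% GC. *Itga2* and the brighter probe of *Itga6* stayed close to *Itgb1*: after irradiation the mean differences moved by 0.06 and -0.07 in young mice and by -0.20 and 0.11 in old mice (-0.0090 and -0.020 without replicates 4 and 6), with overlapping groups. The result for *Itga6* depends on the probe. Its dimmer probe changed by 0.05 in young and -0.02 in old mice (0.18 without replicates 4 and 6), while *Itgb1* rose by 2.06 and 1.51. *Itga4* did not, with shifts of -2.33 in young and -2.17 in old mice and no overlap at either age, nor did *Itga5*, with -1.73 and -2.29 and no overlap. In old irradiated replicates 4 and 6, where *Itga5* was not well above background, its difference was lowest (-4.57 and -3.66), and without them the old shift was -1.35, also with no overlap. Against its other partner *Itgb7*, *Itga4* shifted by 0.26 and 0.56 (0.20 without both replicates), with overlap.

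*Itgal* minus *Itgb2* shifted by -1.05 in young irradiated mice, where all 6 lay between -1.58 and -0.50 and no young unirradiated mouse was below -0.36, and by -0.26 in old mice, with overlap. *Itgax* minus *Itgb2* shifted by -0.81 and -1.06, and the membrane-span probe of *Itgam* minus *Itgb2* by 0.95 and 0.12 (0.66 in old mice without replicates 4 and 6), all with overlap. The result for *Itgam* depends on the probe. Its repeat probe minus *Itgb2* shifted by -0.25 in young and 0.33 in old mice (-0.55 without both replicates), with overlap. *Itgb1* minus *Itgb7* shifted by 2.59 in young and 2.74 in old mice, without overlap at either age. *Itgb1* minus *Itgb2* shifted by 0.62 in young and 0.63 in old mice, without overlap in old mice only. These shifts are given as descriptions with no test.

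**Figure D4:**
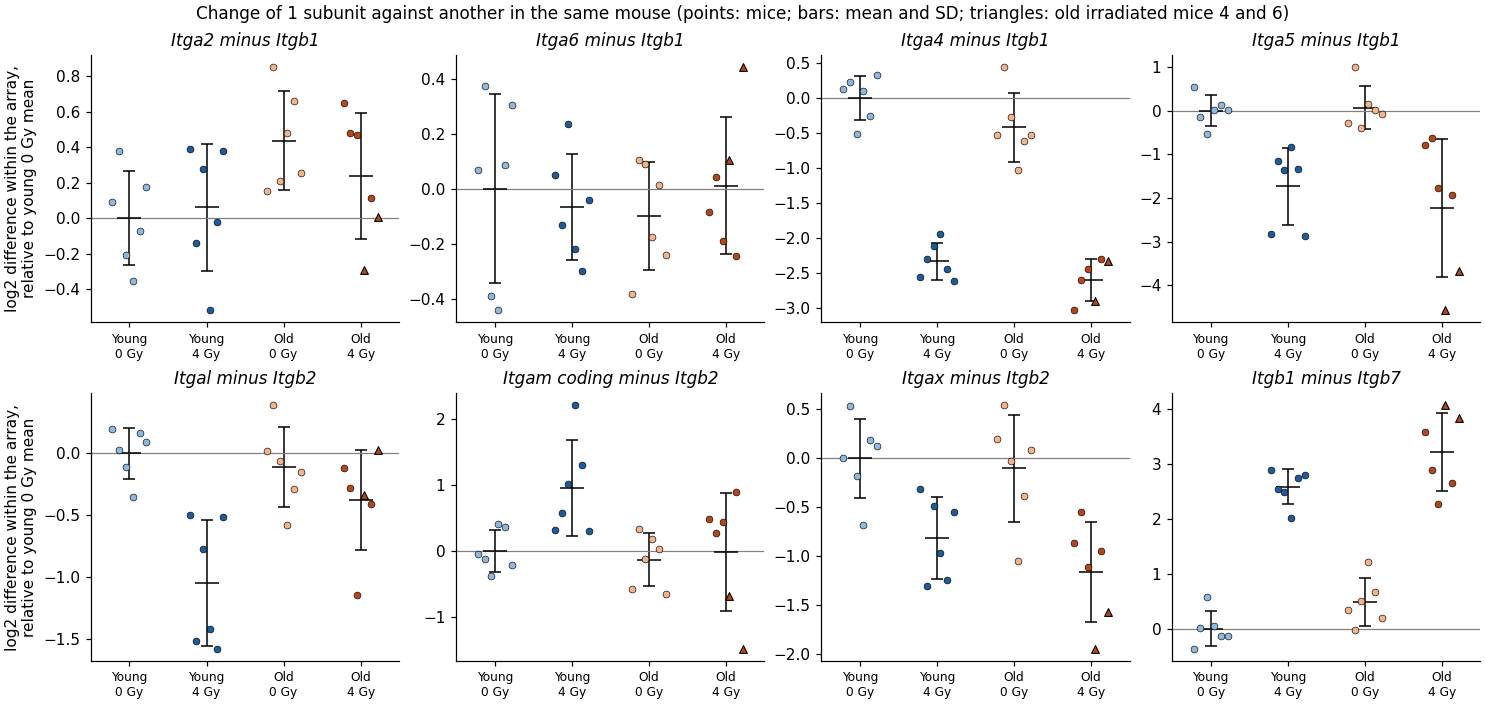
Log2 level of 1 subunit minus another in the same mouse, relative to the young unirradiated mean (vertical axis), in the 4 groups (horizontal axis), with mice as points, mean and SD as bars and old irradiated replicates 4 and 6 as triangles. *Itga2* and the brighter probe of *Itga6* against *Itgb1* lie between -0.52 and 0.85 in all mice. *Itga4* against *Itgb1* lies between -3.02 and -1.94 in all irradiated mice. *Itgam* is drawn with its membrane-span (coding) probe, not its repeat probe.

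Between unirradiated old and young mice, 8 of 9 tested integrins were called, all higher in old mice, on an array where 63.6% of all genes were called (48.1% higher, 15.5% lower). The groups did not overlap for 6 of 10 integrins, against 48.5% of all genes. The median difference over all genes was 0.62, and 7 of 9 integrins were above it, so each value is given with its excess over that median. *Itga2* was higher by 1.5 (SE 0.21, adjusted p = 4.61e-05), an excess of 0.88. *Itga5* was higher by 1.14 (excess 0.52), *Itgb1* by 1.07 (excess 0.45), *Itgb2* by 1.0 (excess 0.37), *Itga6* by 0.97 (excess 0.35), *Itgax* by 0.89 (excess 0.27), *Itgal* by 0.88 (excess 0.26) and *Itgb7* by 0.58 (0.04 under the median: -0.04). *Itgam* was not called on the repeat probe (0.34, adjusted p = 0.0516) but was on the membrane-span probe (0.86, adjusted p = 0.0038). *Itga4* was called at 0.65 (SE 0.18), an excess of 0.03, and lost the call without 7 single mice, young unirradiated replicate 1 (0.59), 3 (0.62), 4 (0.65) or 5 (0.62) or old unirradiated replicate 2 (0.52), 3 (0.61) or 5 (0.67).

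The calls with age depended on the scaling of the arrays. Scaling to the 75th percentile brought the all-gene median to -0.03 and left 1 integrin called of 8 tested, where 37.7% of all genes were called, and quantile normalization brought it to 0.11 and left 2 of 9, against 37.9% of all genes. *Itga2* was called under both, at 0.99 and 1.14, and *Itga5* under quantile normalization (1.0). Quantile normalization turned *Itgb7* to -0.03 and *Itga4* to -0.05. Above the all-gene median were 7 of 8 integrins with the 75th percentile and 7 of 9 with quantile normalization. The 3 *Itgal* probes disagreed with age: 0.88 (A_51_P466378) and 1.19 (A_55_P2184601), but -0.67 (A_55_P2184606, adjusted p = 0.00123), each called.

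Among irradiated mice, 0 of 9 integrins differed between old and young by limma, by limma with trend and robust variance or by the random variance test, where 2% of all genes were called (1.4% higher, 0.599% lower). None of the 10 had groups that did not overlap, against 5.05% of all genes, and 2 had an unadjusted p below 0.05. These were *Itgal* (1.12, SE 0.35, adjusted p = 0.105) and *Itga6* (0.60, SE 0.26, adjusted p = 0.206). Without old irradiated replicates 4 and 6, 28.4% of all genes were called, and of the 9 tested integrins 1 was, *Itgb1* (0.80, adjusted p = 0.00902). *Itga4*, in the table without the fold filter, was called as well (0.54, adjusted p = 0.0137).

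The test of whether the response differed between the ages called 0 of 9 integrins and 0% of all genes. On the brightest probe of each gene, 0 integrins but 4116 of 17525 genes had an unadjusted p below 0.05. In the same test over 24195 probes, the membrane-span probe of *Itgam* (unadjusted p = 0.0249) and the further *Itgb1* probe (unadjusted p = 0.0442) were below it, neither called. The lowest adjusted p over all 17525 genes was 0.0601. The interaction was -0.55 for *Itgb1* (SE 0.30, adjusted p = 0.255), -0.55 for *Itgb2* (SE 0.28, adjusted p = 0.228) and -0.81 for *Itga2* (SE 0.46, adjusted p = 0.271), where a negative value is a smaller rise in old mice. Without old irradiated replicates 4 and 6 these were -0.27 (SE 0.24), -0.33 (SE 0.24) and -0.34 (SE 0.39), with 0 of 9 integrins and 0.148% of all genes called. *Itga5* went from -1.11 to 0.12, *Itgb7* from -0.70 to -0.053 and *Itgax* from -0.80 to -0.29. The membrane-span probe of *Itgam* had -1.38 (SE 0.57, adjusted p = 0.168), or -0.62 without them, and the repeat probe 0.03, or -0.63 without them. Without the 7 arrays with high hepatocyte markers, *Itgax* (-1.65, adjusted p = 0.026) and *Itgb7* (-1.57, adjusted p = 0.0156) were called, 2 of 9 tested integrins against 18.3% of all genes. The old irradiated mice left there were replicates 1, 4 and 6, which include both that stand apart.

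Markers of the cells that carry these integrins moved in the same samples. The mean of 8 platelet markers rose by 1.78 in young and 1.79 in old irradiated mice, with 8 of 8 genes called at both ages, and was higher by 1.12 in old than in young unirradiated mice, with 7 of 8. It ranged from 7.26 to 8.15 in young unirradiated, from 8.37 to 10.28 in young irradiated, from 8.44 to 9.48 in old unirradiated and from 10.16 to 11.08 in old irradiated mice. The mean of 8 B cell markers fell by 2.64 in young mice and fell by 3.67 in old mice, with 8 and 7 of 8 genes called. T cell markers differed by -1.06 in young mice, with 6 of 8 called, and by -0.47 in old mice, with 0 of 8. Natural killer cell markers differed by 1.33 and 0.60 (0.96 in old mice without replicates 4 and 6), with 4 and 0 of 6 called. Neutrophil markers differed by 1.15 in young mice, with 5 of 9 called, differed by 0.68 in old mice, with 0 of 9 (1.43 without replicates 4 and 6), and were higher by 1.92 in old than in young unirradiated mice, with 9 of 9. Monocyte markers differed by 0.72 in young and -1.09 in old mice, with 3 of 8 higher and 1 lower, and then 1 higher and 3 lower. Without replicates 4 and 6 the old monocyte difference was -0.27. It was 1.37 with age, with 7 of 8 higher. Red cell markers differed by -1.56 and -0.81, with 4 and 0 of 7 lower, and by -2.24 in old mice without replicates 4 and 6, where the other 4 did not overlap with the unirradiated mice. Tissue macrophage markers, which include genes of spleen and liver macrophages, rose by 4.5 in young mice, with 7 of 7 called, and differed by 2.23 in old mice, with 1 of 7. Hepatocyte markers differed by 2.92 in young and 6.90 in old mice, with 1 and 7 of 7 tested genes higher. They averaged from -0.40 to 6.47 in young unirradiated, from 0.57 to 10.33 in young irradiated, from -1.56 to -0.88 in old unirradiated and from -0.03 to 9.58 in old irradiated mice. The mean of 4 endothelial markers ranged from 1.98 to 2.99 in young unirradiated, from 3.44 to 3.94 in young irradiated, from 2.54 to 3.26 in old unirradiated and from 3.998 to 4.75 in old irradiated mice. It differed by 1.26 in young and 1.35 in old mice, with 2 of 3 tested genes higher at each age and no overlap between irradiated and unirradiated mice. The endothelial markers Tek and Emcn were not well above background in any mouse. The part of these cell types in the integrin values was not tested.

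**Figure D5:**
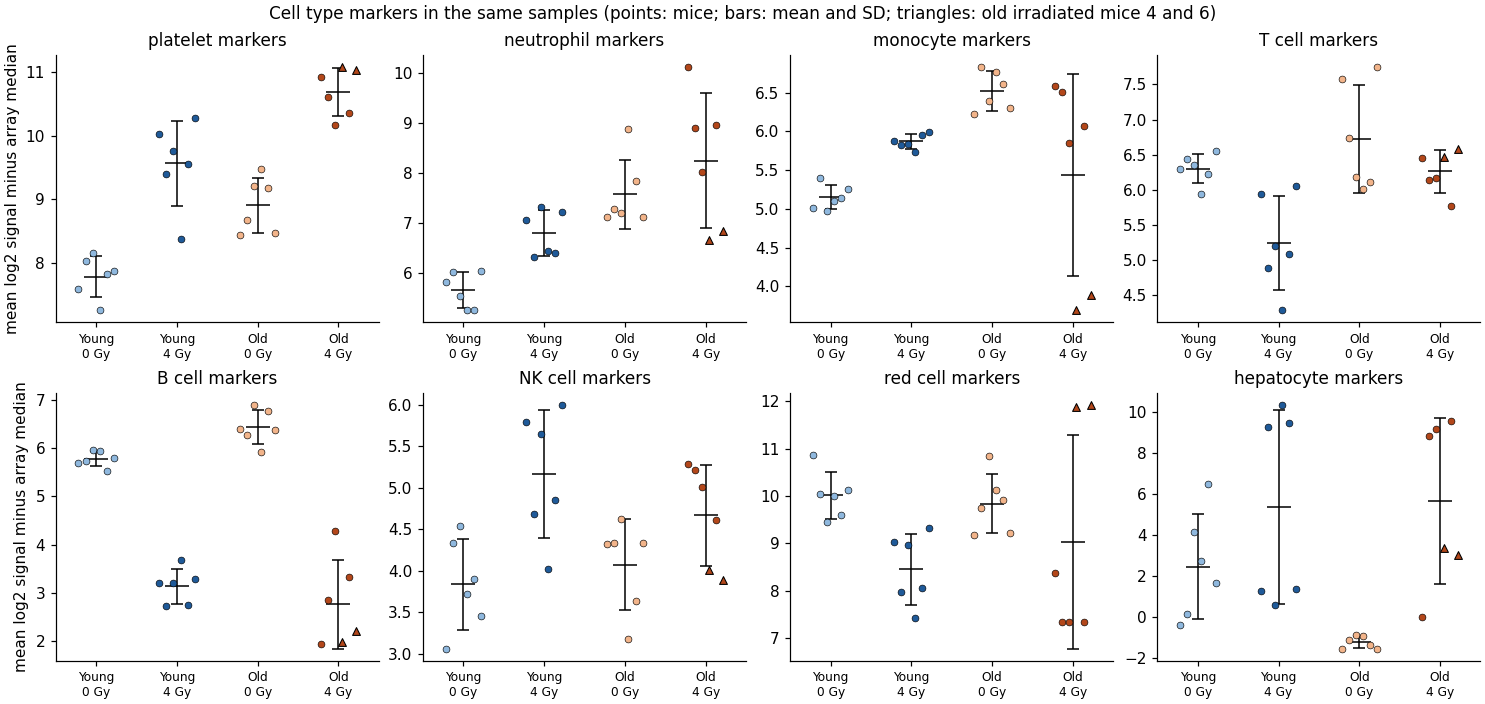
Mean log2 signal minus array median over the marker genes of a cell type (vertical axis) in the 4 groups (horizontal axis), with mice as points, mean and SD as bars and old irradiated replicates 4 and 6 as triangles. Platelet markers lie at 10.16 or higher in every old irradiated mouse, B cell markers at 4.28 or lower in every irradiated mouse, and the triangles are the highest of all mice for red cell markers.

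The genes around the integrins were taken from lists of 5 roles, whose counts stand against 14.4% of all genes higher and 21.3% lower in young irradiated mice and 7.6% and 17.4% in old. Of the other integrin subunits, 10 of 17 were tested: 4 were upregulated and 1 downregulated in young mice, and 5 were upregulated in old mice. The brightest 4 were *Itga2b* and *Itgb3*, which form the platelet fibrinogen receptor, *Itgb5*, a vitronectin receptor chain, and *Itgb4*, the laminin receptor partner of α6. *Itga2b* rose by 2.04 in young and 1.88 in old mice, *Itgb3* by 1.86 and 2.06, *Itgb5* by 1.99 and 1.74, and *Itgb4* by 1.43 and 1.61.

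Of the integrin ligands, 15 of 19 were tested, and 7 rose in young and 6 in old mice, with 0 lower. The list includes the fibrinogen genes *Fga*, *Fgb* and *Fgg* and vitronectin (*Vtn*). It was not counted without the 7 arrays with high hepatocyte markers, and the part of hepatocyte transcripts in these counts was not tested. *Thbs1* (thrombospondin) rose by 2.36 and 2.86 and *Vwf* (von Willebrand factor) by 1.66 and 1.67. *Fn1* (fibronectin) rose by 2.84 in young mice and differed by -0.65 in old mice (SE 0.96, adjusted p = 0.618). *Icam2*, a ligand of LFA-1, rose by 1.69 in young mice and differed by -0.98 in old mice (SE 0.79, adjusted p = 0.35).

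Of the genes that activate integrins, 13 of 15 were tested, and 5 rose and 1 fell at each age. *Tln1* (talin) rose by 1.49 and 1.27, *Skap2*, an adaptor for β2 integrins, by 1.73 and 1.36, *Rasgrp2*, which loads Rap1 with GTP, by 1.53 and 1.41, and *Rap1b* by 1.45 and 1.13. Of the 8 inhibitors, 3 rose and 1 fell in young mice, and 1 rose and 1 fell in old mice. *Flna* (filamin A) rose by 1.11 and 0.95, *Sipa1*, a Rap1 GTPase activating protein, fell by 1.16 and 1.08, *Rasa3* rose by 0.81 in young mice and differed by 0.37 in old mice, and *Sharpin* differed by -0.27 and -0.89 without passing the test. Of the adhesion and signalling genes, 21 of 22 were tested, with 9 higher and 1 lower in young and 8 higher and 1 lower in old mice. *Ilk* rose by 1.59 and 1.45, *Zyx* (zyxin) by 1.53 and 1.33 and *Rac1* by 1.23 and 1.02, whereas *Rac2* differed by -0.29 and -0.20 and was not called. The median difference of the 5 lists lay between 0.51 and 1.69 in young and between 0.18 and 1.39 in old mice, above the all-gene medians of -0.20 and -0.25.

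The same lists were counted with age. In old unirradiated mice 6 of 10 other subunits, 4 of 15 ligands, 11 of 13 activators, 6 of 8 inhibitors and 18 of 21 adhesion and signalling genes were higher than in young mice, against 48.1% of all genes, and 1, 5, 1, 0 and 0 were lower. The median of the ligands, 0.21, was under the all-gene median of 0.62, and those of the other 4 lists, between 0.92 and 1.03, were above it. Hepatocyte markers differed by -3.69 with age, with 5 of 7 tested genes lower, and their part in the ligand counts was not tested. With all arrays, no gene of the 5 lists differed between old and young irradiated mice or had a called interaction. The shares over all genes were 2% and 0%. Without old irradiated replicates 4 and 6, 4974 of 17525 genes were called between irradiated mice, and the lists were not counted there.

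Which members varied together among mice of the same group was described by the correlation over 24 arrays after each group's mean was subtracted. Arrays share depth and cell make-up, so these values carry no test. The closest were *Itga2* with *Itgb1* (r = 0.88, and 0.81 over 22 arrays without old irradiated replicates 4 and 6), *Itga2* with *Itga6* (0.85 and 0.90) and *Itgb1* with *Itgb2* (0.83 and 0.73). *Itgb7* with *Itgb2* went from 0.31 to -0.71 when both replicates were left out, and *Itga2* with *Itgam* from -0.13 to 0.74. Outside the family, the genes nearest to *Itga2* were *Mmp19* (0.94) and *Ptprj* (0.94), to *Itga6* *Zfp652os* (0.94) and *Inf2* (0.94), to *Itgb1* *Afap1l1* (0.93) and *Arhgef12* (0.92) and to *Itgb2* *Tmx4* (0.92) and *Mbd2* (0.92). For *Itgal* they were *Sept9* (0.92) and *Hist4h4* (0.91), for *Itgax* *Sema4d* (0.95) and *Lcp2* (0.95), for *Itga5* *Lrrc25* (0.95) and *Hsd17b11* (0.95), and for *Itgb7* *Smg9* (0.96) and *Myo1g* (0.96). Over 22 arrays the values of *Itgb7* were 0.74 and 0.69 and those of *Itga5* 0.81 and 0.77, and the other values lay between 0.87 and 0.98.

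The repeat probe of *Itgam* was nearest to *Hexim2* (0.99) and *Pdzrn3* (0.99), whose probes both hold a run of at least 8 CA or TG repeats as well. Among the other probes above background, 28 of 100 with such a run had r above 0.9 with it, against 580 of 24057 without one, over 24 arrays. The median r was 0.11 with a run and -0.17 without one over 24 arrays, but -0.04 and 0.14 over the 22 arrays without old irradiated replicates 4 and 6. Its correlation with the membrane-span probe of the same gene was -0.73 over 24 arrays and -0.26 over 22, and with the upstream probe -0.47 and -0.27. The mean of the probes with a run was 6.87 to 7.48 in young unirradiated, 6.39 to 6.92 in young irradiated, 7.29 to 7.62 in old unirradiated and 6.74 to 7.91 in old irradiated mice, in which replicates 4 and 6 were highest. How much of the repeat probe's signal comes from *Itgam* was not tested.

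The 250 bases before the start of each gene were searched on both strands for GAGGAA. These letters are the core of sites for PU.1, a factor of myeloid cells known to act on the *Itgam* promoter. RefSeq promoters (GRCm38.p6) were given for 7 of 10 members, and none for *Itga6*, *Itgal* and *Itgb2*. *Itga5*, *Itgam* and *Itgb1* held the letters, against 23.3% of 32851 promoters of the same length. *Itga2*, *Itga4*, *Itgax* and *Itgb7* did not. The part of PU.1 in the integrin values was not tested. For TGTGGT, the core of RUNX sites, *Itga4* was the 1 member of 7 with a match, against 14.05% of promoters. The *Itgam* promoter (GRCm38.p6 chr7:128062390-128062639, plus strand) is shown with its matches in capitals, 1 on each strand.
Itgam promoter: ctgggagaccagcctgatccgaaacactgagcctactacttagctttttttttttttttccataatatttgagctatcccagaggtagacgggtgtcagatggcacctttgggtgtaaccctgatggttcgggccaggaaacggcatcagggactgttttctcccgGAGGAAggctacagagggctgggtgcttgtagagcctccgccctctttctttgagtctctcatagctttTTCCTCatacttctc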

How the data were processed

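The authors deposited a Feature Extraction 12.0.2 file per array, whose gProcessedSignal intensity values are background-subtracted and not scaled between arrays, with the array annotated on mm9. The authors also deposited log2 values in a series-wide table, made in BRB-ArrayTools with filtering and normalization before deposit. It holds 17190 probes with column medians of 5.77 to 6.73, its normalization cannot be told from the file alone, and it was used as an alternative. For *Itga4*, *Itgal* and *Itgam* it holds other probes than the main analysis.

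From the intensity files, non-uniform spots were set to missing, log2 was taken, the array median over 43020 spots that are not controls was subtracted and repeat spots were averaged. Of 39429 probes, 24195 were kept after those that were non-uniform or at background in at least 25% of the arrays were dropped. The brightest probe stood for each of 18792 genes, and 17525 genes differed at least 1.5-fold from their median in 5 arrays or more. Groups were compared with limma 3.58.1 (R 4.3.3, data.table, version 1.17.8), two-sided, on the 12 arrays of each pair, and on all 24 for the interaction. Where 6 mice did not overlap with 6 others, the exact two-sided permutation p is 0.00216, the smallest that 924 splits allow. The number of arrays limits the precision, and the p-values set each difference against the spread between arrays within groups. Some slides held 1 group only, so the p-values do not separate group from slide, nor age from scan day. Replicate numbers were not taken to pair mice in the main tests. The deviations of same-numbered arrays correlated at -0.60 to 0.59 over the comparisons of groups, which does not settle whether any mice were paired.

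The members and lists were chosen with earlier results of these data known. Named genes are all members, the 4 brightest tested genes of each list and the 2 genes most correlated with each member. Promoters were searched with Biostrings 2.70.1. The tests were checked on simulated data of 17496 genes, with 100 genes changed by 1 and 100 by 2 in log2 and all others unchanged. The adjusted threshold is less strict where many genes change, as between unirradiated ages, where 63.6% of all genes were called. The shares recovered in the simulation are therefore not the power of the tests in the mice. Of the changes of 1, limma called 31% after irradiation in young mice and 9% in old mice. It called 73% between unirradiated ages, 5% between irradiated ages and 7% for the interaction. Of the changes of 2 it called 89%, 51%, 91%, 59% and 52% in the same order. Alternatives were other scalings, normexp background correction (offset 50), the deposited table, other filters, probe rules and tests, replicate or slide as a block, and leaving out arrays. Those without both replicates 4 and 6, without arrays with high hepatocyte markers and with close arrays averaged were added after the data were seen.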

Additional observations from a re-analysis of the deposited data

Results flagged for a closer look

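In 2 of 68 groups of 6 mice, taken over all 17 probes, 1 mouse lay far from the other 5, past Dixon's limit, where chance gives about 1 in 20. *Itgb2* (A_51_P262208) in old unirradiated replicate 4 was high, at a log2 level of 8.20, with the other 5 mice between 7.43 and 7.72. *Itgb1* (A_52_P351816) in old unirradiated replicate 2 was high, at 4.71, against a group median of 4.19.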

How the results depend on the processing

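Of the values for single members under the alternatives and the arrays left out, 1491 kept their direction and their side of the threshold, 90 lost it, 23 gained it and 5 turned. In young irradiated mice the count of 6 integrins became 3 with normexp correction, where 835 of 11782 genes were called. It became 0 of 9 within 1 slide, where 2 mice of each group were left and 77 of 17525 genes were called. In old irradiated mice the count of 4 became 0 with normexp correction (8 of 11782 genes) and 2 with a replicate block (3419 of 17525 genes). Between unirradiated mice the count of 8 became 1 with 75th percentile scaling (5609 of 14867 genes) and 2 with quantile normalization (5669 of 14957 genes). It became 1 with the median over detected probes (5461 of 14743 genes) and 0 with normexp correction (0 of 11782 genes). With the deposited table it became 2 (4448 of 17166 genes), and in 1 fit of all 24 arrays 5 (6066 of 17525 genes). Between irradiated mice the count of 0 became 1 (*Itgal*) in 1 fit of all 24 arrays and 1 (*Itgal*) with the slide as a random block. It became 1 (*Itgb1*) without old irradiated replicates 4 and 6. The counts over all 17525 genes were 2522, 1344 and 4974 in the same order. For the interaction it became 2 without arrays with high hepatocyte markers, where 3206 of 17525 genes were called. The cause of these changes was not tested. Reversed were *Itgb7* in young mice with normexp correction (0.10), and between unirradiated mice *Itga4* (-0.054) and *Itgb7* (-0.034) with quantile normalization and, in the deposited table, *Itgb7* (-0.13) and *Itgal* (-1.02, on probe A_55_P2184606). Leaving out 1 array at a time gave 6 to 7, 2 to 4, 8 to 8, 0 to 0 and 0 to 0 calls in the 5 comparisons. The replicate block gave 5, 2, 8, 0 and 0. The share of called genes that were higher between unirradiated mice was 75.7% with the median, 27.8% after scaling to the 75th percentile, 42.5% after quantile normalization, 23.7% with detected probes and 17.2% in the deposited table. In old irradiated mice it was 30.5% with the median and 49.2%, 36.9%, 54.3% and 52.0% in the same order. With normexp correction, 94.1% of called genes in young mice were higher, against 40.3%. With close arrays averaged, *Itgam* (adjusted p = 0.0313) and *Itgb7* (adjusted p = 0.0765) lost their calls in young mice. The signal over background limits *Itga5* and the dimmer probes of *Itga4* and *Itgam*, which were not well above background in every mouse.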
